A study of Aedes aegypti with 8 samples.

Results

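The 37 consecutive identifiers AAEL018658 to AAEL018694, listed for the mitochondrial chromosome of the yellow fever mosquito Aedes aegypti, were taken from a midgut count table of 19712 identifiers. They were taken as a complete stretch of numbers, and the choice was made with earlier results of these data known. Within them, AAEL018664 to AAEL018689 form a stretch of 26 identifiers, called the run here because they shared a count, and 11 identifiers lie outside it. The libraries came from midguts of sugar-fed Liverpool strain females, 3 to 5 days old, which were cultured outside the animal for 35 h in serum-free Schneider's Drosophila medium with antibiotics. One group of 4 libraries had no added heme (0 μM heme) and the other group of 4 had 10 μM hemin chloride (10 μM heme). Each library was made from the polyA RNA of 30 pooled midguts. The comparison asks how midgut tissue responds to an excess of heme, the iron-containing group that a blood-feeding female meets in quantity as hemoglobin is digested.

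The mitochondrial chromosome of animals is a small circle present in many copies per cell. It encodes core subunits of the respiratory chain and of the ATP synthase, together with the ribosomal RNAs and transfer RNAs needed to translate them, while most other mitochondrial proteins are encoded in the nucleus and imported. Its genes are transcribed as long precursors that are cut into the separate RNAs, in large part at the transfer RNAs that lie between the other genes. Heme is a cofactor of the cytochromes of this chain, and the last steps of heme synthesis take place in mitochondria. None of the 37 identifiers could be matched by number to the RefSeq AaegL5.0 gene table, which lists 38 mitochondrial genes (13 protein, 23 tRNA and 2 rRNA genes). Single identifiers were therefore given no gene name or class, and their mitochondrial origin rests on the list of identifiers. They were grouped by position and by mean count at 0 μM heme instead.

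The 8 libraries held 46027977 to 56947544 counts, and 35 or 36 of the 37 identifiers had at least 1 count in each. AAEL018692 had 0 counts in all 8 libraries, which allows up to 3 counts per library. Replicate 1 of 0 μM heme and replicate 2 of 10 μM heme are described as lying apart from the other libraries, so the shares and the calls were also computed without that pair. The labelled tissue could be checked against only a pair of annotated markers. AAEL002273, a putative trypsin of the digestive epithelium, had 9 to 24 counts. A single marker with so few counts could not check whether epithelium was present. AAEL000485, a putative paramyosin of muscle, had 4874 to 7370 counts, so muscle RNA was present in every library. In bulk tissue, fewer cells of a type and less RNA per cell cannot be told apart. The replicates are described as biological, with no further detail, and p-values measure only the spread between these libraries.

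As deposited, the share of all counts that fell on the 37 identifiers was far more variable at 10 μM heme than at 0 μM heme. The 4 libraries at 0 μM heme had 0.332%, 0.228%, 0.266% and 0.165% of their counts on these identifiers, in the order of replicates 1 to 4. The 4 libraries at 10 μM heme had 6.85%, 0.251%, 1.76% and 3.13%. Replicates 1, 3 and 4 of 10 μM heme thus lay above every library at 0 μM heme, while replicate 2 lay among them. The mean share was 0.248% ± 0.0700 at 0 μM heme and 3.00% ± 2.83 at 10 μM heme (SD, n = 4), and the difference was within the spread between replicates (exact permutation test over 70 arrangements, two-sided p = 0.0857, where 0.0286 is the smallest possible). Taken as pairs by replicate number, the share was higher at 10 μM heme in 4 of 4 pairs, with p = 0.125, the smallest that 4 pairs allow (exact permutation test of signs, two-sided; chosen after the data were seen). Without 10 μM heme replicate 2 the difference of the means rose from 2.75 to 3.67 percentage points and p was 0.0286, the smallest value possible there (exact permutation test). That p was fixed by leaving out the only library at 10 μM heme that was not high. Without 10 μM heme replicate 1 the difference was 1.47 percentage points.

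The excess lay in the run and was nearly the same number at all of its 26 identifiers. AAEL018665, the first of its low-count identifiers, had 9, 10, 9 and 6 counts at 0 μM heme and 135116, 7, 30210 and 64569 counts at 10 μM heme. AAEL018683, the last of its low-count identifiers, had 50, 34, 31 and 30 counts at 0 μM heme and 135107, 37, 30243 and 64589 counts at 10 μM heme. At 0 μM heme these identifiers differed severalfold from each other, and in the 3 high libraries they differed by less than 40 counts. AAEL018673 to AAEL018676, at 11 to 15 counts in the other 5 libraries, carried identical counts in all 8 libraries. The steps into and out of the run were sharp. In 10 μM heme replicate 1, AAEL018663 had 51 counts and its neighbour AAEL018664 had 137420, and at the other end AAEL018689 had 159838 counts and AAEL018690 had 35.

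**Figure D1:**
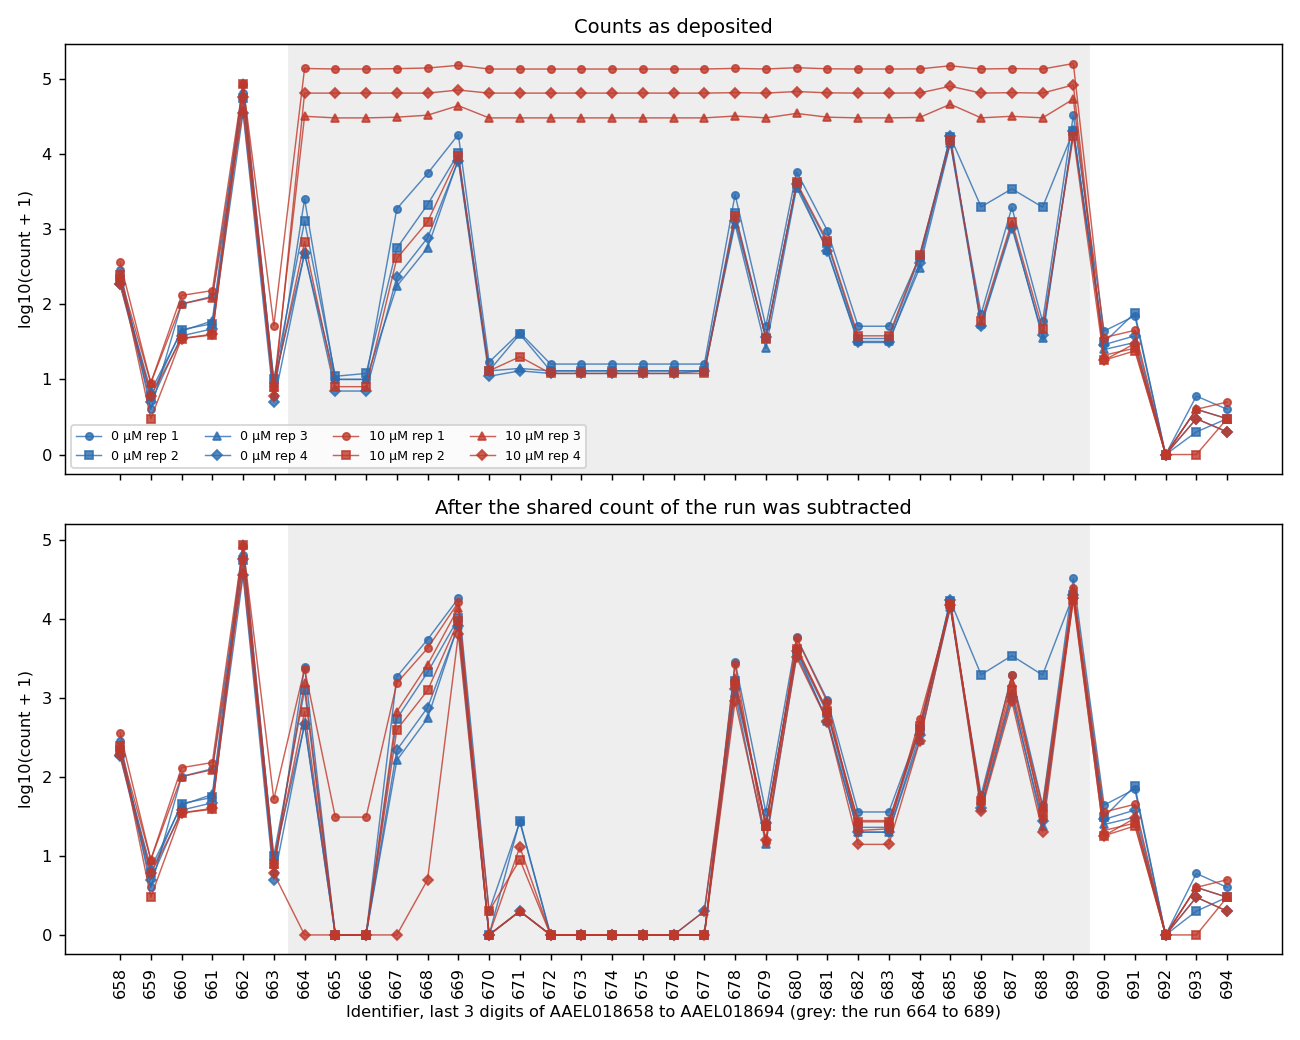
Counts of the 37 identifiers in order of their numbers, on a log10(count + 1) axis, with 1 line per library (blue: 0 μM heme, red: 10 μM heme). As deposited (top), replicates 1, 3 and 4 of 10 μM heme follow flat lines across the run, at about 135086, 30216 and 64576 counts, and after these counts are subtracted (bottom) the lines of the libraries still part at AAEL018664, AAEL018667 and AAEL018668, where 10 μM heme replicate 4 drops to 0, 0 and 4 counts, and at AAEL018686 and AAEL018688, where 0 μM heme replicate 2 reaches 1963 and 1945.

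To put a number on the common count, the median over the 13 low-count identifiers, those of the run averaging below 100 counts at 0 μM heme, was taken in each library. This shared count was 15, 12, 12 and 11 at 0 μM heme and 135086, 11, 30216 and 64576 at 10 μM heme. Across the 13 identifiers, the counts ranged only from 135085 to 135116 in 10 μM heme replicate 1, from 30210 to 30243 in replicate 3 and from 64569 to 64591 in replicate 4. Their standard deviations were 12.6, 11.9 and 7.75 counts, where independent Poisson counts of the same mean would give 368, 174 and 254. The 13 values of a library were therefore not separate measurements. Divided by the total of its library, the shared count was 0.200 to 0.326 CPM (counts per 1000000 counts of the library) at 0 μM heme and 2520, 0.198, 598 and 1134 CPM at 10 μM heme (exact permutation test, two-sided p = 0.143). The 13 identifiers were picked for low counts at 0 μM heme. Low values in that group thus follow from the choice, and this p cannot test the difference. The shared count made up 95.6%, 88.1% and 94.2% of all counts on the 37 identifiers in replicates 1, 3 and 4 of 10 μM heme, and 0.200% to 0.304% in the other 5 libraries. How a read whose alignment spanned more than one identifier was counted is not stated in the study's methods, so the shared count cannot be read as RNA of each of the 26 identifiers. What produced it was not tested.

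A gene-wise test of the deposited counts called most of the run, and all of the calls shared this count. Of the 37 identifiers, 32 passed the filter on low counts and 25 of these were higher at 10 μM heme (edgeR exact test, Benjamini-Hochberg adjusted p of at most 0.05 over 11095 genes), with none lower. Of all 11095 genes tested, 4.63% were called in either direction, and 2.22% were called higher. With the replicate number as a block, a quasi-likelihood test called 9 of the 32 (6.53% of all genes tested were called). All 25 calls of the exact test lay in the run, which follows from drawing the run around the shared count. Of these calls, 15 also passed an adjusted p of 0.0001, as did 0.937% of all genes tested. The 26 log2 fold changes of the run lay between 1.80 and 12.80, and were larger the lower the count at 0 μM heme. The 13 low-count identifiers had log2 fold changes of 10.69 to 12.80, and the 13 with a mean of 100 counts or more had 1.80 to 7.37. The low-count set includes AAEL018665 and AAEL018666, which had at most 11 counts in the other 5 libraries and passed the filter only through the 3 high libraries at 10 μM heme. AAEL018689, which had the highest count of the run at 0 μM heme, was the only identifier of the run not called, with a log2 fold change of 1.80 ± 0.77 and an adjusted p of 0.0602 in the edgeR exact test (SE over 4 libraries per group). The median log2 fold change of the 32 identifiers was 6.74, beside 0.02 over all genes tested. For none of the 32 did the groups separate without overlap, and 10 μM heme replicate 2 stayed at the level of the 0 μM heme libraries throughout. The groups did not overlap for 10.2% of all genes tested. DESeq2 also called 25 identifiers (6.95% of the genes it tested). With edgeR's quasi-likelihood test the number called fell to 18 (2.85% of all genes tested were called), and AAEL018664, AAEL018668, AAEL018669 and AAEL018685 were among those lost, with adjusted p of 0.0613, 0.0996, 0.105 and 0.0764.

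Subtracting the shared count from the 26 identifiers of the run left a share that was similar in both groups. The 4 libraries at 0 μM heme then had 0.331%, 0.227%, 0.266% and 0.165% of their counts on the 37 identifiers. The 4 at 10 μM heme had 0.300%, 0.250%, 0.210% and 0.180%, so that all of them fell within the range of the 0 μM heme libraries. The means were 0.247% ± 0.0699 and 0.235% ± 0.0518 (SD, n = 4; exact permutation test, two-sided p = 0.771). The subtracted count was read from these same libraries and held most of the excess. The similar shares thus follow in large part from the method. They show only how much difference was left beyond that count. The run was drawn around the shared count in these data. The 11 identifiers outside it therefore lack that count by choice and needed no subtraction. Their comparison cannot test whether the excess was confined to the run. Their share was 0.142%, 0.106%, 0.169% and 0.0652% at 0 μM heme and 0.159%, 0.156%, 0.0776% and 0.0998% at 10 μM heme. The means of 0.121% ± 0.0452 and 0.123% ± 0.0410 (SD, n = 4) lay within the replicate spread (two-sided p = 0.943, exact permutation test).

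The subtraction assumes that the shared count belongs to no identifier. When it was instead counted a single time per library, a choice made after the data were seen, the share was 0.589%, 0.250%, 0.273% and 0.302% at 10 μM heme and 0.165% to 0.331% at 0 μM heme. Replicate 1 of 10 μM heme then still lay above all other libraries. The difference of the means was 0.106 percentage points (exact permutation test, two-sided p = 0.286).

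**Figure D2:**
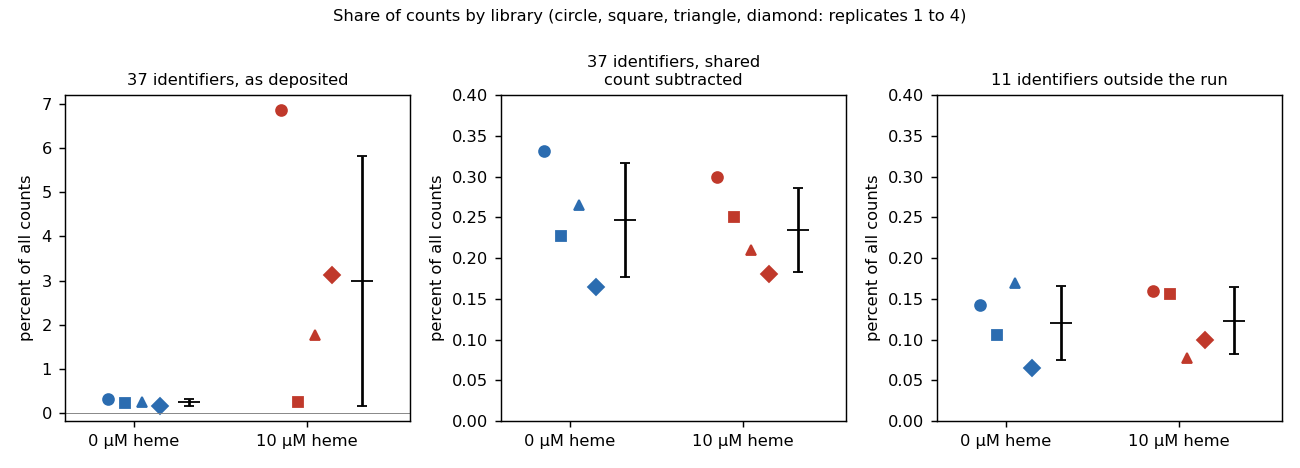
Percent of all counts of each library that fell on the 37 identifiers as deposited, on the same identifiers after the shared count was subtracted, and on the 11 identifiers outside the run. Points are libraries and the black marks give the mean and SD of 4 libraries per group. The 10 μM heme points spread from 0.251% to 6.85% as deposited and from 0.180% to 0.300% after subtraction, and the left axis has another scale than the others.

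With the shared count removed, 22 of the 37 identifiers passed the filter on low counts and none was called at 10 μM heme by edgeR's exact test, its quasi-likelihood test or DESeq2. The loss of the calls follows in large part from removing the count that they shared. After subtraction the exact test called 4.29% of the 11088 genes tested, the quasi-likelihood test 2.64% and DESeq2 6.85%. At an unadjusted p of at most 0.05 in the exact test, which 13.3% of all genes met, 2 of the 22 were lower at 10 μM heme, namely AAEL018686 and AAEL018688. The other 20 had log2 fold changes between -0.77 and 0.46, and the median of the 22 was -0.04, beside 0.02 over all genes tested. Of the 13 low-count identifiers of the run, 3 still had enough counts to be tested. AAEL018672 to AAEL018676 lay at the subtracted median or 1 count below it. Their remainder of 0 in all 8 libraries thus follows from the method.

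**Figure D3:**
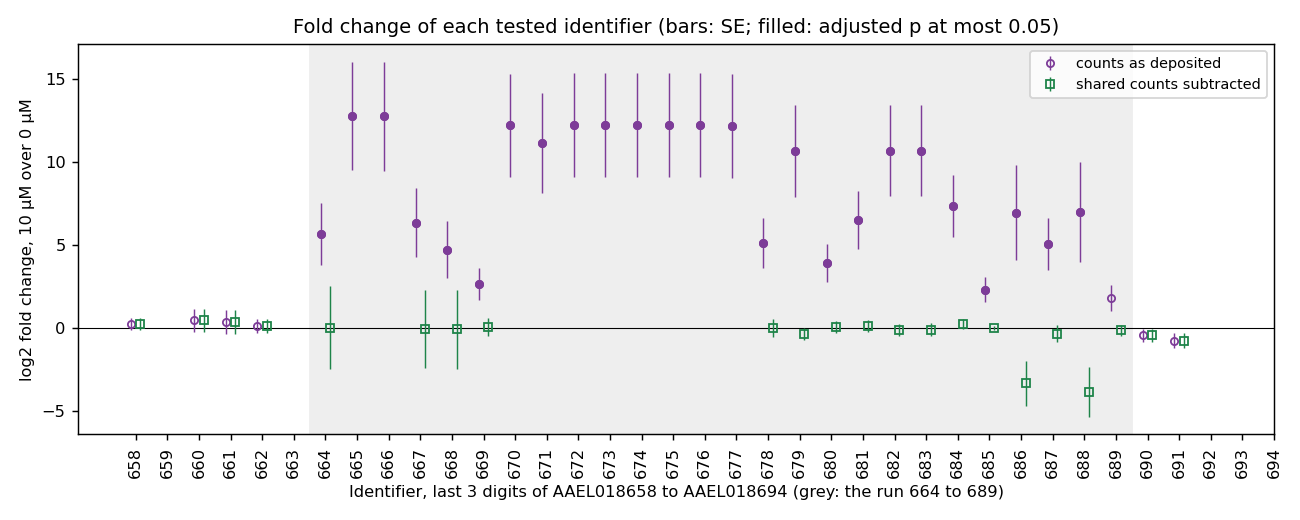
Log2 fold change of each tested identifier at 10 μM over 0 μM heme, with SE (4 libraries per group), before and after the shared count was subtracted. Filled points passed an adjusted p of 0.05 in the edgeR exact test. Before subtraction the values within the run lie between 1.80 and 12.80 and outside it between -0.77 and 0.46, and after subtraction 20 of the 22 values lie between -0.77 and 0.46.

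AAEL018662, outside the run, held more counts than any other of the 37 identifiers once the shared count was taken off. It had 64806, 56279, 88810 and 35451 counts at 0 μM heme and 84672, 86323, 38669 and 56500 counts at 10 μM heme, and its libraries overlapped throughout. It made up 36.5% to 63.5% of the remaining counts on the 37 identifiers, so it weighed heavily in their share. Scaled by TMM, its level was 1183 ± 460 CPM at 0 μM heme and 1299 ± 512 CPM at 10 μM heme (SD, n = 4). The log2 fold change was 0.14 ± 0.43 (edgeR exact test, adjusted p = 0.972), and leaving it out of the share gave a difference of -0.0148 percentage points (exact permutation test, two-sided p = 0.629).

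AAEL018658 was the other identifier outside the run with a mean of at least 100 counts. It had 287, 217, 200 and 183 counts at 0 μM heme and 363, 245, 232 and 186 counts at 10 μM heme. Its groups overlapped, with a log2 fold change of 0.25 ± 0.36 (edgeR exact test, adjusted p = 0.908). AAEL018660 and AAEL018661 varied together over the libraries. AAEL018660 had 100, 45, 43 and 37 counts at 0 μM heme and 130, 34, 100 and 34 counts at 10 μM heme. AAEL018661 had 126, 54, 59 and 46 counts at 0 μM heme and 151, 38, 122 and 39 counts at 10 μM heme. Both were thus high in the replicate 1 library of each group and in 10 μM heme replicate 3. AAEL018690 and AAEL018691 had 17 to 43 and 23 to 76 counts and fitted log2 fold changes of -0.45 ± 0.39 and -0.77 ± 0.43 (edgeR exact test, adjusted p = 0.809 and 0.451). AAEL018659, AAEL018693 and AAEL018694 had at most 8 counts in any library and were not tested, nor were AAEL018663, with 4 to 51 counts, and AAEL018692.

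The run kept a profile of high-count and low-count identifiers after subtraction, and AAEL018689 and AAEL018685 held the most counts in it. AAEL018689 retained 32748, 20114, 20331 and 20134 counts at 0 μM heme and 24752, 17115, 23520 and 18419 counts at 10 μM heme. Its replicate 1 at 0 μM heme was the highest of all, and the log2 fold change was -0.14 ± 0.34 (edgeR exact test, adjusted p = 0.956). AAEL018685 retained 14187, 16943, 13940 and 17565 counts at 0 μM heme and 14126, 15266, 15679 and 15126 counts at 10 μM heme. The groups overlapped closely at 297 ± 26.4 and 293 ± 35.0 CPM (SD, n = 4), and the log2 fold change was -0.02 ± 0.11 (edgeR exact test, adjusted p = 0.999).

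AAEL018669, AAEL018680 and AAEL018678 shared an order of libraries rather than a difference between groups. AAEL018669 retained 18124, 10160, 8474 and 8153 counts at 0 μM heme and 16208, 9317, 13749 and 6368 counts at 10 μM heme (log2 fold change 0.06 ± 0.52). AAEL018680 retained 5817, 3966, 3537 and 3951 counts at 0 μM heme and 5728, 4167, 4423 and 3253 counts at 10 μM heme (log2 fold change 0.06 ± 0.35). AAEL018678 retained 2862, 1612, 1153 and 1290 counts at 0 μM heme and 2651, 1499, 1770 and 907 counts at 10 μM heme (log2 fold change 0.01 ± 0.55). Each was highest in the replicate 1 libraries of both groups and lowest in 10 μM heme replicate 4. The adjusted p was 1 for AAEL018669 and AAEL018678 and 0.998 for AAEL018680 in the edgeR exact test.

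AAEL018664, AAEL018667 and AAEL018668 were nearly empty in 1 library. After subtraction AAEL018668 had 5482, 2106, 551 and 753 counts at 0 μM heme and 4247, 1242, 2620 and 4 counts at 10 μM heme. AAEL018664 had 2493, 1259, 455 and 470 counts at 0 μM heme and 2334, 669, 1529 and 0 counts at 10 μM heme. AAEL018667 likewise had 161 to 1851 counts at 0 μM heme and 1541, 395, 670 and 0 counts at 10 μM heme. In 10 μM heme replicate 4 the 3 identifiers thus held as deposited only the count of their low neighbours, although AAEL018669, next to them by number, retained 6368 counts there. Subtracting the lowest count of the run in place of the median left 4, 5 and 11 counts at AAEL018664, AAEL018667 and AAEL018668 in that library. Their fold changes carried large errors for this reason, at 0.02 ± 2.50 for AAEL018664 and -0.09 ± 2.40 for AAEL018668 (log2; edgeR exact test, adjusted p = 1 for both). Without 10 μM heme replicate 4 the log2 fold changes were 0.43 and 0.32.

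**Figure D4:**
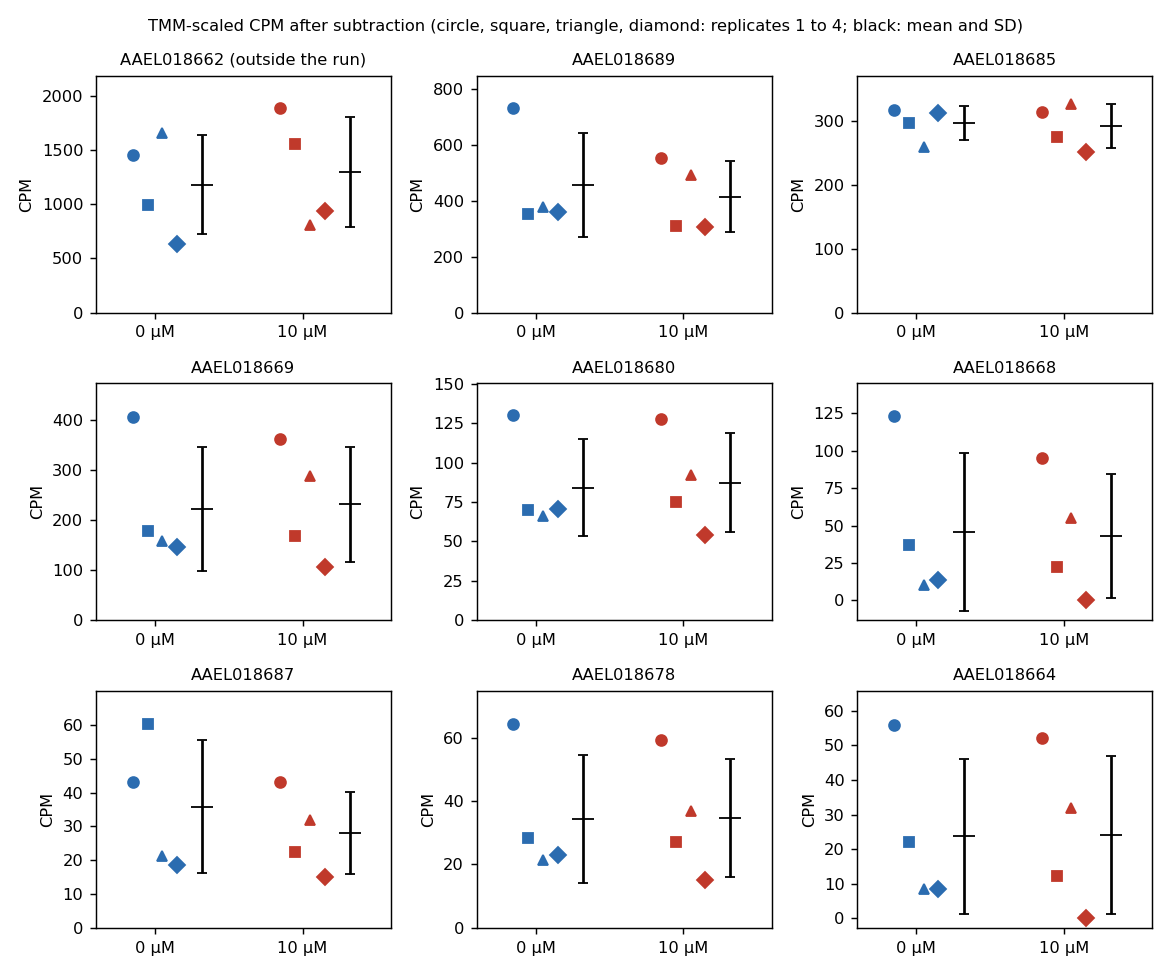
TMM-scaled CPM of AAEL018662 and of the 8 run identifiers whose mean at 0 μM heme was highest, after the shared count was subtracted. Points are libraries, with the mean and SD of 4 libraries per group in black, and each panel has its own linear axis. The groups overlap in every panel, and 10 μM heme replicate 4 (diamonds) is at 0 for AAEL018664. The replicate 1 libraries (circles) are the 2 highest for AAEL018689, AAEL018669, AAEL018680, AAEL018668, AAEL018678 and AAEL018664.

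A second, smaller shared count was seen at the end of the run, in a library without heme. AAEL018686 had 1975 counts as deposited in 0 μM heme replicate 2, against 50 to 73 in the other 3 libraries of the group. AAEL018688 had 1957 counts there, against 35 to 58. Their excess over the median of the other 3 was 1922 and 1919 counts, and AAEL018687, which lies between them by number, had an excess of 2282 (3435 counts against 1046 to 1941). At AAEL018685 and AAEL018689, the next identifiers on either side, the same excess was 2753 and -217 counts. At AAEL018685 that library had 16955 counts, within the 13952 to 17576 of the others. At AAEL018689 it had 20126, just below their range of 20145 to 32763. Whether the second shared count reached AAEL018685 cannot be told from these values, given the spread there. After subtraction of the shared count of the whole run, AAEL018686 had a log2 fold change of -3.36 ± 1.33 and AAEL018688 of -3.87 ± 1.49 (edgeR exact test, adjusted p = 0.0799 and 0.0664), both set by this library. Both were called lower at 10 μM heme when replicate 1, 3 or 4 of 0 μM heme was left out, with adjusted p between 0.0176 and 0.0273 (edgeR exact test), and neither was called without replicate 2. AAEL018687 retained 1926, 3423, 1141 and 1035 counts at 0 μM heme and 1928, 1248, 1531 and 903 counts at 10 μM heme, with overlapping groups. It had a log2 fold change of -0.35 ± 0.52 (edgeR exact test, adjusted p = 0.898).

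The main pattern left in the abundant identifiers was a difference between libraries that crossed the groups. This order was examined after the values were seen and is given as a description, without a test. Among the 15 identifiers with a mean of at least 100 counts after subtraction, the replicate 1 libraries of both groups were the 2 highest for 10, and the same 3 libraries (replicate 1 of each group and 10 μM heme replicate 3) were the 3 highest for 10. Replicate 4 of 10 μM heme was the lowest for 14 of the 15. Over all 11088 genes tested, the replicate 1 libraries were the 2 highest for 17.1% and 10 μM heme replicate 4 was the lowest for 16.5%. Each level was then divided by the mean of that identifier over the 8 libraries. The median of this relative level over the 15 identifiers was 1.52, 0.833, 0.698 and 0.643 at 0 μM heme and 1.52, 0.743, 1.07 and 0.471 at 10 μM heme. Over all genes tested it lay between 0.974 and 0.997 in every library.

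Nuclear genes of the respiratory chain and the ATP synthase, whose products join the mitochondrially encoded subunits in the same complexes, had the same libraries at the extremes. For all 11 such genes that could be named, the replicate 1 libraries were the 2 highest and 10 μM heme replicate 4 was the lowest. Over the 31 nuclear mitochondrial genes listed below, these 11 included, the first held for 23 and the second for 21. Neither was therefore particular to the respiratory chain and the ATP synthase. The median relative level of the 11 genes was 1.29, 0.878, 0.898 and 0.925 at 0 μM heme and 1.29, 0.957, 1.04 and 0.748 at 10 μM heme. The libraries between the extremes followed another order than in the mitochondrial identifiers, and whether the orders are alike was not tested. ATP synthase beta subunit AAEL003393, part of the catalytic head of the enzyme, had 136, 105, 111 and 114 CPM at 0 μM heme and 143, 117, 126 and 87.9 CPM at 10 μM heme. CPM of this and of the nuclear genes named below was scaled by TMM. The libraries at the extremes also differed in other measures. Paramyosin AAEL000485, in CPM of the deposited totals without TMM scaling, had 106 and 90.9 in the replicate 1 libraries and 114 to 140 in the other 6. In 10 μM heme replicate 4 it had 117. The deposited totals include the shared count, which lowers this measure most in 10 μM heme replicate 1. The trypsin AAEL002273 stayed below 0.5 CPM on the same scale in all 8 libraries. Replicate 1 of 0 μM heme had the fewest total counts as deposited and 10 μM heme replicate 4 the most, with 56947544. The latter total depends on the shared count. It holds 1781643 counts on the 37 identifiers, against 102690 after subtraction, and 10 μM heme replicate 2 had 55498839 counts in total. The part of these differences in which libraries were high or low was not tested.

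By treatment, these 11 nuclear genes did not separate. None was called, and their log2 fold changes lay between -0.11 and 0.11 with a median of 0.01. Cytochrome c AAEL004457, the soluble heme protein that carries electrons to cytochrome c oxidase, had 405, 294, 317 and 320 CPM at 0 μM heme and 376, 315, 329 and 237 CPM at 10 μM heme. Its means were 334 ± 49.1 and 314 ± 57.5 CPM (SD, n = 4), a log2 fold change of -0.09 ± 0.17 (edgeR exact test, adjusted p = 0.968). A cytochrome c oxidase polypeptide, AAEL014944, belongs to the enzyme that reduces oxygen and had 237, 151, 165 and 165 CPM at 0 μM heme and 249, 175, 192 and 135 CPM at 10 μM heme. The groups overlapped, with a log2 fold change of 0.06 ± 0.23 (edgeR exact test, adjusted p = 0.986). ATP synthase beta subunit AAEL003393 had one of 0.03 ± 0.17 (edgeR exact test, adjusted p = 1.000). These genes stood with 6 genes of the mitochondrial ribosome and translation, 3 of protein import and 11 others in a list of 31 nuclear mitochondrial genes. Of the 31, all were tested, 3 were called lower and none higher, against 2.42% of all genes tested called lower. The median log2 fold change of the list was -0.04, beside 0.02 over all genes tested, and no gene of the ribosome or import groups was called.

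The 3 that fell were metabolic and carrier proteins. Acetyl-CoA acetyltransferase AAEL006634, which joins or splits acetyl-CoA units, had 26.2, 29.0, 29.1 and 30.1 CPM at 0 μM heme and 17.4, 18.8, 15.7 and 18.3 CPM at 10 μM heme. The groups lay well apart, the log2 fold change was -0.71 ± 0.07 and the call held in every alternative that was run (edgeR exact test, adjusted p = 7.39e-06). The mitochondrial glutamate carrier AAEL004124, which brings glutamate into the matrix, had 61.1, 54.2, 73.0 and 53.1 CPM at 0 μM heme and 47.8, 42.2, 45.2 and 42.6 CPM at 10 μM heme. Its groups did not overlap, and the log2 fold change was -0.44 ± 0.11 (edgeR exact test, adjusted p = 0.0349). The mitochondrial carrier protein AAEL012117 had 48.9, 51.2, 65.0 and 48.6 CPM at 0 μM heme and 37.1, 39.3, 42.1 and 40.1 CPM at 10 μM heme. Here too the groups did not overlap (log2 fold change -0.43 ± 0.11; edgeR exact test, adjusted p = 0.0380). In the list of 31, the groups did not overlap for 3 genes, beside 10.2% of all genes tested. Lack of overlap therefore does not set the list apart. Both carriers lost their call in the quasi-likelihood test (adjusted p = 0.0760 and 0.0744) and without 0 μM heme replicate 3 (edgeR exact test, adjusted p = 0.167 and 0.173), and each lost it without several other single libraries.

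**Figure D5:**
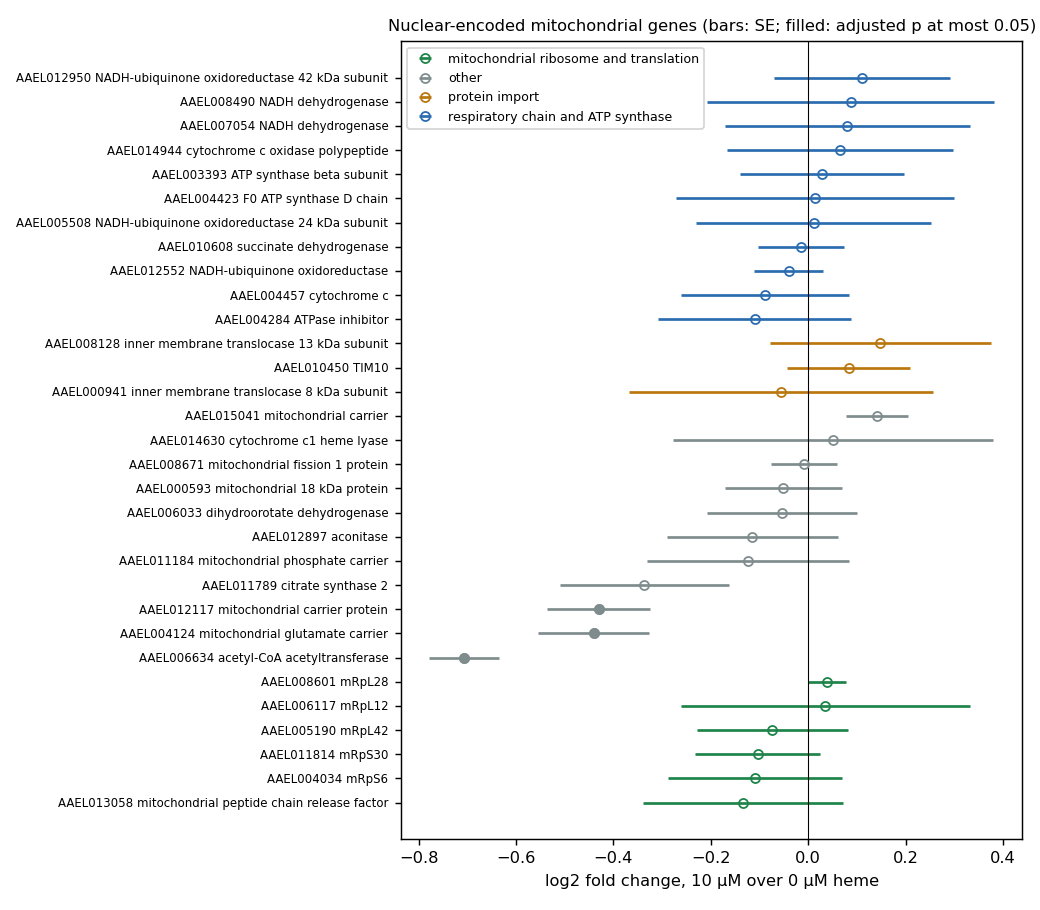
Log2 fold change at 10 μM over 0 μM heme, with SE (4 libraries per group), of 31 nuclear genes for mitochondrial proteins, grouped by function. Filled points passed an adjusted p of 0.05 in the edgeR exact test. The respiratory chain and ATP synthase genes lie between -0.11 and 0.11, and the 3 filled points, at -0.43, -0.44 and -0.71, are the carriers AAEL012117 and AAEL004124 and the acetyltransferase AAEL006634.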

How the data were processed

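The authors deposited gene counts from single-end reads of 75 bases, aligned to AaegL5 with HISAT2 2.1.0, filtered at mapping quality 10 with SAMtools and counted with bedtools 2.19.1. All 8 count columns were mapped to labelled libraries by name and 0 were left unused. The main test was the exact test with Benjamini-Hochberg adjustment that the study names (edgeR 4.0.16 in R 4.3.3, over all genes tested). The default low-count filter and TMM scaling were chosen here. The shared count was subtracted from the 26 identifiers of the run, with negative remainders set to 0. Fold changes are log2 differences, SEs come from log2 CPM with a prior count of 2, and shares were compared by exact permutation. DESeq2 1.42.0, edgeR's quasi-likelihood test, other scalings, filters and left-out libraries were alternatives. The gene-wise tests were also tried on simulated counts, drawn separately for each gene with no count shared between genes. That simulation does not bear on the calls within the run. Members, lists and tests were chosen with earlier results of these data known. Values per library were given for identifiers outside the run with a mean of 100 counts or more, the 8 highest of the run at 0 μM heme, its first and last low-count identifiers, and, of the nuclear list, those called plus cytochrome c, its oxidase and ATP synthase beta. Others, among them AAEL018686 and AAEL018688, were named after their values were seen. Names of nuclear genes come from the study's supplementary sheets, which were shortened, so that list is partial. Counting, with no strand stated, cannot separate overlapping neighbours. Counting the shared count a single time, leaving out AAEL018662 and pairing the shares by replicate number were added after the data were seen.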

Additional observations from a re-analysis of the deposited data

Results flagged for a closer look

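Of 58 groups of 4 libraries examined for a library far from the other 3, 8 had one, where chance alone gives about 1 in 20 independent groups (2.9 here). These groups were not independent, because they are identifiers and shares of the same 8 libraries. AAEL018660 and AAEL018661, for example, varied together. The 8 and the 2.9 therefore make no test. In 0 μM heme replicate 1, AAEL018660 had 100 counts against at most 45 in the others, AAEL018661 had 126 against at most 59, and AAEL018689 had 32748 after subtraction against at most 20331. In 0 μM heme replicate 2, AAEL018686 and AAEL018688 had 1963 and 1945 counts after subtraction, against at most 58 and 43. In 10 μM heme replicate 1, AAEL018663 had 51 counts against at most 7 and AAEL018690 had 35 against at most 20. AAEL018686 was lowest in 10 μM heme replicate 4, with 36 counts after subtraction against 48 to 50. No explanation of these values was tested.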

How the results depend on the processing

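With the counts as deposited, the 25 calls became 18 in the quasi-likelihood test, 9 with the replicate number as a block (6.53% of all genes called), 16 (of 19 tested, 5 of them only through the 3 high libraries) with a CPM filter, and 21 to 26 with 1 library left out; DESeq2, no filter and the other scalings gave 25. After subtraction the number called was 0 in every alternative except without replicate 1, 3 or 4 of 0 μM heme (range over left-out libraries 0 to 2). The replicate block gave 0 there and 3 nuclear genes. The nuclear calls were 1 in the quasi-likelihood test, 1 with no filter, 1 without the pair that lies apart, and 1 to 2 with 1 library left out. With 1 library left out, the difference in share (10 μM minus 0 μM heme, percentage points) was 1.47 to 3.67 as deposited, -0.0398 to 0.0158 after subtraction and -0.0159 to 0.0188 outside the run, and the shared count differed by 577 to 1417 CPM. Without 10 μM heme replicate 2 the first and the last had the smallest p possible, 0.0286 (exact permutation test). This follows from leaving out the only library at 10 μM heme that was not high. The subtracted difference was 0.00578 with TMM-scaled library sizes and 0.0107 without the pair, and the difference outside the run was -0.00119 without the pair. Same-numbered libraries correlated in their deviations from the group means at 0.646, 0.235, 0.133 and 0.272 (log2(CPM + 0.5), 37 identifiers left out), but at 0.515, 0.0702, 0.0616 and 0.157 over all genes with a prior count of 2, and not every library correlated best with its own number, so the check did not settle whether the numbers pair the libraries. By pairs, p for the shares was 0.125 as deposited, 0.625 after subtraction and 1 outside the run, and 0.25 for the shared count (exact permutation test of signs). Of single identifiers under the alternatives, 34 of 531 results as deposited lost their call and 4 gained one, and none that was called changed direction. AAEL018689 was called without 0 μM heme replicate 1, without 10 μM heme replicate 2, without the pair and with the CPM filter (edgeR exact test, adjusted p = 0.0368, 1.31e-04, 1.17e-06 and 0.0493). With 4 libraries per group, a share difference could not reach p below 0.0286.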
